A study of Mus musculus with 18 samples.

Results

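The chemokine ligand genes described here are 31 of the 18147 mouse genes measured on the arrays. They were taken by symbol, as Ccl or Cxcl followed by a number and at most 1 letter, with a probe that had a value on at least 14 of 18 arrays. The array names 33 such genes, and 2 of them are not analysed here. Of the 31, 24 were read by 1 probe and 7 by a pair of probes whose log2 ratios were averaged.

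RNA of 18 lymphomas was compared with RNA of thymus on 2-colour Agilent oligonucleotide arrays. Each lymphoma came from mice that lacked Atm, a kinase that signals DNA breaks, mTerc, the RNA template of telomerase, and the tumour suppressor p53 (Atm-/-, mTerc-/-, p53-/-). The common reference was thymus RNA of healthy p53 heterozygous mice aged 3 weeks, and each lymphoma was labelled in both dye orientations and has 1 deposited ratio per probe. The samples hold neither a lymphoma of a different genotype nor thymus of the knock-out mice, so effects of the genotype, the tumour and the makeup of the tissue cannot be told apart. The labels do not say that the lymphomas came from separate mice, and the p-values therefore measure only the spread between these samples. The reference counts as 1 control whose own spread is not in any test. The number of arrays limits the precision.

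Chemokines are small secreted proteins that guide leukocytes by binding G protein-coupled receptors on them. In the thymus, stromal cells secrete homeostatic chemokines that draw in progenitors and move thymocytes between cortex and medulla. Inflammatory chemokines are induced in many cells by interferons, tumour necrosis factor and interleukin 1 through STAT and NF-kappaB factors, and attract monocytes, neutrophils, eosinophils and effector T cells.

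All values are log2 ratios of lymphoma over thymus, and the fold changes hold if the deposited ratios are log10 values, which the files do not state. The direction is the likely one, since it puts the deleted genes Atm and Terc below thymus. Terc was lower in 18 of 18 lymphomas (mean -1.47 ± 0.58, SD, n = 18) and Atm in 17 of 18 (-0.65 ± 0.53). The probes of Terc disagreed in size, with means of -2.66 (lower in 18 of 18) and -0.27 (lower in 12 of 18). The label protocol names arrays for genomic DNA while the labelled molecule is total RNA. The share of probes without a value was 2.27% to 7.79% per array, and array medians lay between -0.04 and 0.12.

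Lymphomas 7, 12 and 14 stood apart from the rest. Their mean correlation with the other arrays over all probes was 0.17, 0.29 and 0.24, against 0.50 to 0.58 for the other 15. Of 9 T lineage markers, 6 were lower than in thymus and none was higher, with Thy1 at -1.32 ± 0.60 and Cd5 at -1.99 ± 1.69. Cd3e (0.21 ± 0.78) and Cd3d (-0.19 ± 0.98), chains of the T cell receptor complex named after their values were seen, did not pass the test. The mean of the T lineage list was -3.51 in lymphoma 14 and -1.87 in lymphoma 7, and lay between -1.50 and 0.45 in the other 16. The fibroblast list was at 4.10 in lymphoma 14, and the thymic epithelium list was at 0.12 in lymphoma 12 and -0.18 in lymphoma 7, against -2.22 or lower in the other 16.

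The lymphomas also fell into 2 sets by the mean of 12 macrophage markers. It lay between -3.09 and -2.37 in lymphomas 1, 2, 3, 5, 15, 17 and 18, and between -0.34 and 2.01 in the other 11. The labels give no such sets. Their values are set side by side below, and no test was made between them. Where values are said not to overlap between the sets, the share of all genes that separate likewise was not counted. In RNA of whole tissue, fewer cells of a type and less RNA per cell cannot be told apart.

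Of the 31 chemokine ligand genes, 19 fell below thymus (27.9% of all genes were called lower) and none was higher (29.9% of all genes), by limma with Benjamini-Hochberg adjusted p under 0.05. At an unadjusted p under 0.05, 20 of the 31 passed. A mean decrease of at least 2-fold was seen for 16 (10.9% of all genes) and a mean increase of that size for none (4.3% of all genes). The median of the 31 means was -1.04 on the log2 scale, against 0.05 over all genes. The ligands also varied more among the lymphomas, with a median SD of 1.60 against 0.53 over all genes. Without lymphomas 7, 12 and 14, 22 ligands were lower (30.3% of all genes) and again none was higher (31.7%). The 3 added were Ccl3, Ccl4 and Cxcl5 (limma adjusted p = 0.0113, 0.033 and 0.0298).

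**Figure D1:**
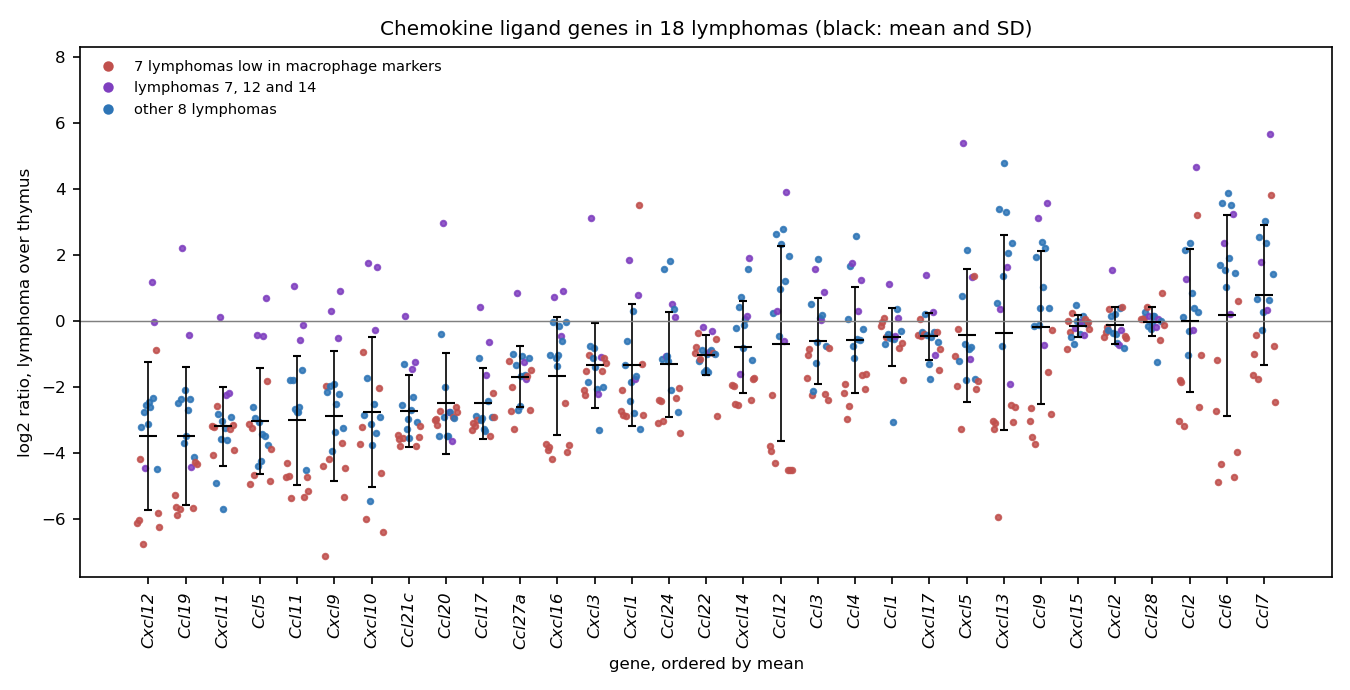
Log2 ratio of lymphoma over thymus for each of the 31 chemokine ligand genes, with 1 point per lymphoma and the mean and SD in black. Means run from -3.50 (Cxcl12) to 0.79 (Ccl7), and the points of the 7 lymphomas low in macrophage markers lie at the bottom for many genes.

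The share of ligands above thymus differed among lymphomas. In lymphoma 7, 25 of 31 ligands (80.6%) had a ratio above 0, against 54.3% of all genes on that array, and the median over the ligands was 1.05. Lymphoma 14 had 17 ligands above 0 (54.8%, against 48.0% of all genes on that array) and a median of 0.09. In lymphomas 1, 17 and 18 only 1 ligand each was above 0 (3.23%), against 51.3%, 53.9% and 51.6% of all genes. The lowest median, -3.04, was that of lymphoma 5. In the 7 lymphomas low in macrophage markers the ligand medians lay between -3.04 and -1.83, and in the other 11 between -1.31 and 1.05.

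**Figure D2:**
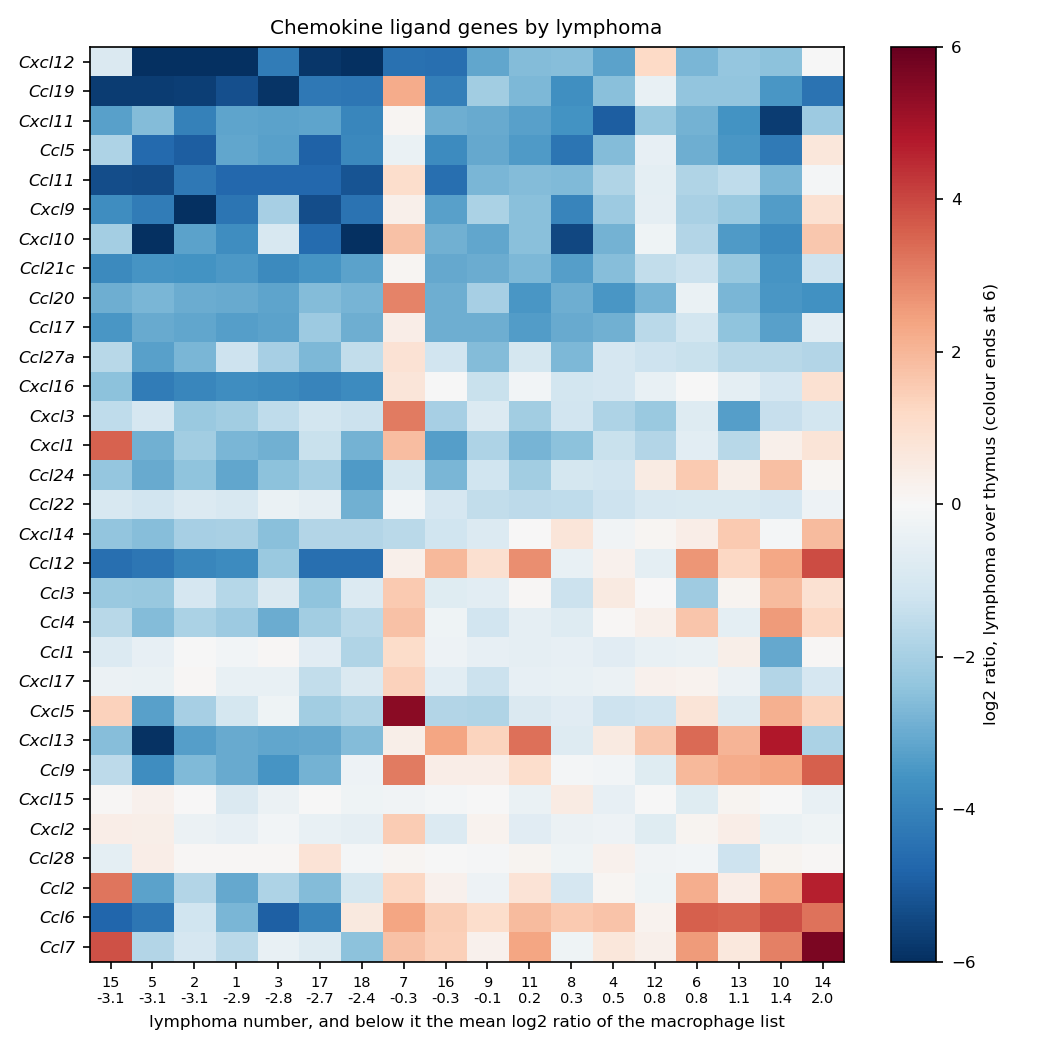
Log2 ratio of lymphoma over thymus of the 31 ligand genes (rows, ordered by mean) in each lymphoma (columns, ordered by the mean of the macrophage list, printed under the number). The upper rows are blue in nearly all columns, and lymphoma 7 is red in most rows. Ccl12, Cxcl13, Ccl9, Ccl6 and Ccl7 are mostly blue at the left and mostly red at the right. Exceptions include Ccl7 in lymphoma 15 at the left end (3.82) and Cxcl13 in lymphoma 14 at the right end (-1.91).

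Homeostatic ligands of lymphoid stroma were among those with the largest decrease. Cxcl12, the ligand of Cxcr4 that retains progenitors and recruits them to the thymus, ranged from -6.77 in lymphoma 5 through a median of -3.17 to 1.19 in lymphoma 12. It was above thymus in lymphoma 12 alone, and lymphoma 14 followed at -0.03. The mean was -3.50 ± 2.24 (SD, n = 18), 11.3-fold lower (limma adjusted p = 5.47e-06). In 6 of the 7 lymphomas low in macrophage markers it was at -4.20 or lower, while lymphoma 15 stood at -0.89. The other 11 lay between -4.51 and 1.19.

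Ccl19, a Ccr7 ligand of thymic medulla and lymph node stroma, ranged from -5.88 in lymphoma 3 through a median of -3.91 to 2.22 in lymphoma 7. Lymphoma 7 alone was above thymus, and the next highest, lymphoma 12, was at -0.44. The mean was -3.49 ± 2.09 (SD, n = 18), 11.2-fold lower (limma adjusted p = 2.43e-06). Ccl21c, a gene for the second Ccr7 ligand, ranged from -3.80 in lymphoma 15 through a median of -3.12 to 0.13 in lymphoma 7. It was lower in the other 17 lymphomas, with a mean of -2.73 ± 1.10 (SD, n = 18), 6.66-fold lower (limma adjusted p = 2.46e-08). Ccl21c has near-identical copies in the mouse genome, as have Ccl19 and Ccl27a, and probe signal from the copies cannot be told apart. Ccr7, the receptor of both, fell with them (-2.64 ± 0.91, 18 of 18 lymphomas lower, limma adjusted p = 4.90e-09).

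Cxcl13, the B cell attractant of lymphoid follicles that binds Cxcr5, differed in its pattern. Its mean of -0.36 ± 2.97 (SD, n = 18) did not pass (limma adjusted p = 0.655), and its SD was the second largest of the 31. The values ranged from -5.94 in lymphoma 5 through a median of -0.19 to 4.79 in lymphoma 10. All 7 lymphomas low in macrophage markers were at -2.54 or lower and the other 11 between -1.91 and 4.79, so these sets did not overlap. Cxcr5 fell 2.58-fold (-1.37 ± 0.93, limma adjusted p = 1.42e-05), with lymphomas 12 and 7 above thymus. B cell markers moved unevenly, with 2 of 5 lower and 1 higher, and their list mean was above thymus in lymphomas 9 and 12 only.

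Inflammatory ligands induced by interferon formed the next group. Cxcl9, Cxcl10 and Cxcl11 bind Cxcr3 and attract effector T cells and natural killer cells. Cxcl9 and Cxcl10 lie near each other on chromosome 5. Promoter windows of 300 bases across the start site were available in RefSeq (GRCm38.p6) for 20 of the 31 ligands. The pair is shown because the ratios of both genes rose with those of interferon-response genes over the 18 lymphomas. The Cxcl9 window is chr5:92328030-92328329 and that of Cxcl10 is chr5:92348840-92349139, both on the minus strand and printed 5′ to 3′. Capitals mark matches to an interferon-stimulated response element, read as GAAA, any 2 bases and GAAA, or to a kappaB motif, read as GGG, any 3 bases and TTCC. Both were searched on both strands.
Cxcl9: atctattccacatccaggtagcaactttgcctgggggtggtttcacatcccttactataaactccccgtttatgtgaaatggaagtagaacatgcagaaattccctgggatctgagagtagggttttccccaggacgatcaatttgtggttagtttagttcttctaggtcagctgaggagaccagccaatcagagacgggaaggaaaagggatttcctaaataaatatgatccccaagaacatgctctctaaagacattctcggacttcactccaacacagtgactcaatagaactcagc
Cxcl10: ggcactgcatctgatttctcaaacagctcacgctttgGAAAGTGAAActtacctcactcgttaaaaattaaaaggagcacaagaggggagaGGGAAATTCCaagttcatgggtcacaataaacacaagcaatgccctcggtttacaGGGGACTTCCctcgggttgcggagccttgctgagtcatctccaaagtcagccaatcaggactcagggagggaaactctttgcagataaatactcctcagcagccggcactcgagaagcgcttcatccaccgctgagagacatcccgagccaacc
The Cxcl10 window holds 1 match to the first motif, at positions -213 to -204 from the start site, and 2 to the second. These letters are not in the Cxcl9 window. Among the 20 ligands, 3 held the interferon motif (Ccl19, Cxcl10 and Cxcl14) and 7 the kappaB motif, against 3.99% and 6.31% of 27025 genes with such windows.

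Cxcl10 ranged from -6.39 in lymphoma 18 through a median of -3.01 to 1.76 in lymphoma 7. Lymphomas 7 and 14 were above thymus, lymphoma 12 was next at -0.26, and the other 15 were at -0.95 or lower. The mean was -2.76 ± 2.28 (SD, n = 18), 6.76-fold lower (limma adjusted p = 9.62e-05). Cxcl9 ranged from -7.13 in lymphoma 2 through a median of -2.89 to 0.90 in lymphoma 14, and again lymphomas 7, 12 and 14 were the highest. Its mean was -2.88 ± 1.98 (SD, n = 18), 7.37-fold lower (limma adjusted p = 1.26e-05). Cxcl11 ranged from -5.71 in lymphoma 10 through a median of -3.20 to 0.13 in lymphoma 7, and the second highest, lymphoma 14, was at -2.18. It was 9.18-fold lower (-3.20 ± 1.20, limma adjusted p = 1.16e-08). RefSeq lists Cxcl11 as a transcribed pseudogene of the reference strain, while the labels name no strain for these mice. Cxcr3, their receptor, was at -0.93 ± 2.07 and did not pass (limma adjusted p = 0.0839). Its ratio was 5.03 in lymphoma 7.

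Ccl5, Ccl3 and Ccl4 attract T cells and macrophages. Ccl5, made by activated T cells and natural killer cells, ranged from -4.94 in lymphoma 2 through a median of -3.34 to 0.70 in lymphoma 14. It was lower in 17 of 18 lymphomas, with a mean of -3.04 ± 1.60 (SD, n = 18), 8.23-fold lower (limma adjusted p = 5.49e-07). Ccl3 (-0.61 ± 1.30) and Ccl4 (-0.59 ± 1.61), macrophage inflammatory proteins, did not pass in all 18 lymphomas (limma adjusted p = 0.0742 and 0.158). Ccl3 was called lower without lymphoma 7, 10 or 14, and Ccl4 without lymphoma 10.

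Interferon-response genes fell in the same comparison. Of 17 measured, 14 were lower and none higher, among them Ifit2 (-0.70 ± 0.56) and Psmb9 (-0.74 ± 0.61), a subunit of the immunoproteasome. Across the lymphomas, 3 ligands rose with the mean of this list (limma slope, adjusted p under 0.05), against 2.93% of all genes. Cxcl10 changed by 2.13 ± 0.26 log2 units per unit of the list (SE, limma adjusted p = 0.000119), Cxcl9 by 1.72 ± 0.28 (0.00169) and Ccl5 by 1.39 ± 0.23 (0.00193). Lymphomas 7, 12 and 14 had list means of 0.60, 0.42 and 0.98, and without them no ligand passed (0.204% of all genes, 3 ligands at an unadjusted p under 0.05). Within the 11 lymphomas not low in macrophage markers, 6 ligands passed (4.3% of all genes). These were Cxcl10, Ccl5, Cxcl9, Ccl11, Ccl17 and Ccl21c. Within the other 7 none passed (0.193% of all genes, 3 at an unadjusted p under 0.05).

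Lymphoma 3 deviated from this relation. Its interferon list mean was 0.93, yet Cxcl9 was at -1.99, Cxcl10 at -0.95 and Ccl5 below thymus. Within the 7 lymphomas low in macrophage markers, its Cxcl9 and Cxcl10 were still the highest, while its Ccl5 was not. Without lymphoma 3, 16 of the 31 ligands rose with the list, and the share of all genes was not counted for that setting.

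**Figure D3:**
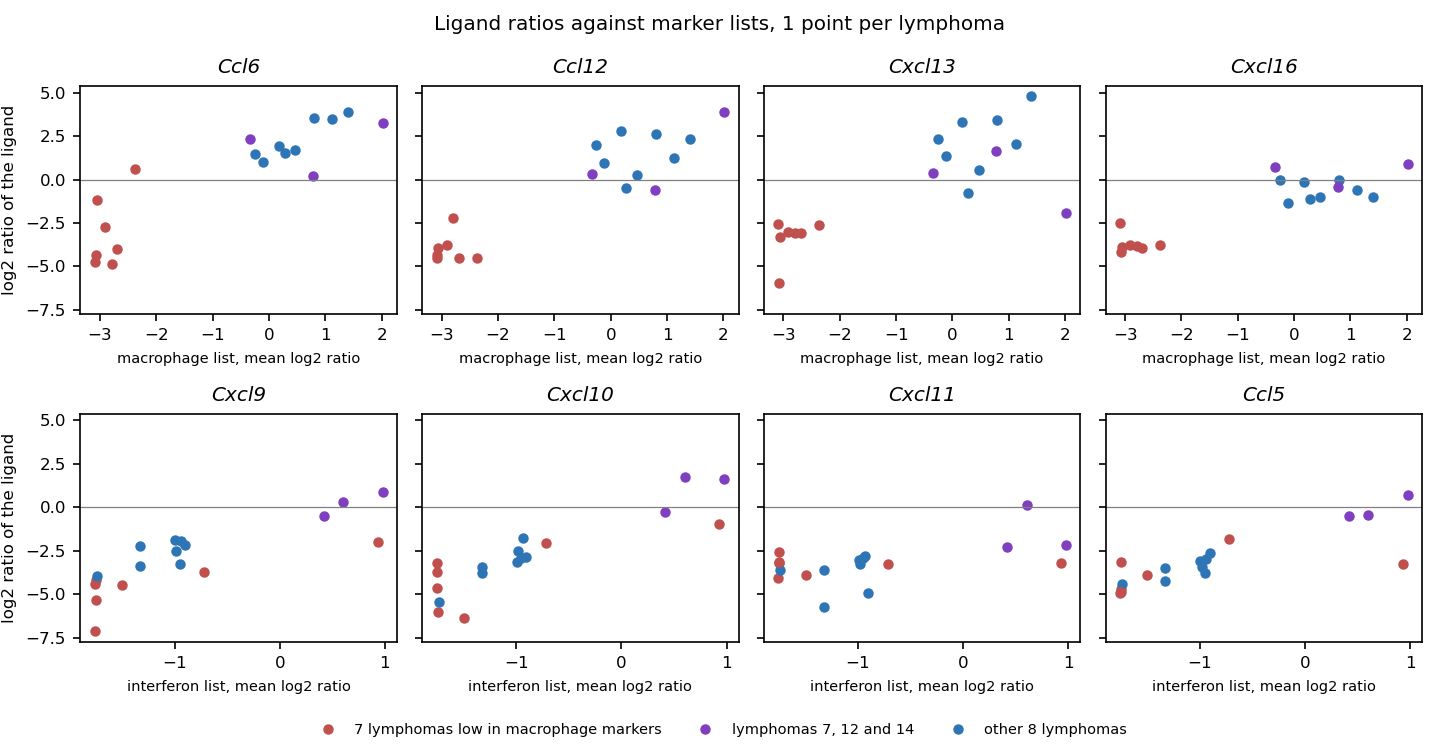
Log2 ratio of a ligand against the mean log2 ratio of the macrophage list (upper row) or the interferon-response list (lower row), with 1 point per lymphoma. In the upper row the points form separate clouds for the 7 lymphomas low in macrophage markers and the other 11, and in the lower row lymphomas 7, 12 and 14 lie at the upper right.

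The neutrophil attractants, which bind Cxcr2, behaved unevenly. Cxcl1, Cxcl2 and Cxcl3 are close relatives on chromosome 5. Their promoter windows are shown because all 3 hold the kappaB motif while only Cxcl1 and Cxcl3 fell. The windows are chr5:90890995-90891294, chr5:90903649-90903948 and chr5:90785851-90786150 (GRCm38.p6, plus strand, RefSeq), with kappaB matches on either strand in capitals.
Cxcl1: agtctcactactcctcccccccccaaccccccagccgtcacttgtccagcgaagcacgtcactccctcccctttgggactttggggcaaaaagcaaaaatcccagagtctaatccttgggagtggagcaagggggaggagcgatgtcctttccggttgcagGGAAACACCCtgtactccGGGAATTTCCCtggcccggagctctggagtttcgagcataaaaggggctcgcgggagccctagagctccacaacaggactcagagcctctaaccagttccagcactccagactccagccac
Cxcl2: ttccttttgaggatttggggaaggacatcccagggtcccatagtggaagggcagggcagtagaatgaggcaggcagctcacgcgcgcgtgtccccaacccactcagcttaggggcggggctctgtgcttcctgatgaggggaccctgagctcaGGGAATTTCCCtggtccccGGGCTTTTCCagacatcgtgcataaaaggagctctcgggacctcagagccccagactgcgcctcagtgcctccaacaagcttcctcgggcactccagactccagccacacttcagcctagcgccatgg
Cxcl3: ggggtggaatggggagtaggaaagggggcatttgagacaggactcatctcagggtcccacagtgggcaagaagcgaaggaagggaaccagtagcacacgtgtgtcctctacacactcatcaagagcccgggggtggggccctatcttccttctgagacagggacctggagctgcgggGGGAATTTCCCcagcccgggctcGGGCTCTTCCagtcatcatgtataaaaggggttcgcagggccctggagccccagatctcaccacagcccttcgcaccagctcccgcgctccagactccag
Each window holds the same match on both strands, GGGAATTTCC and its overlapping reverse, beginning at positions -71, -97 and -73 from the start site, and 1 further match. A match describes letters, not a bound site.

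Cxcl1 ranged from -3.29 in lymphoma 16 through a median of -1.82 to 3.52 in lymphoma 15. Lymphomas 7, 14 and 10 were also above thymus, and the mean was -1.34 ± 1.86 (SD, n = 18), 2.52-fold lower (limma adjusted p = 0.00852). Cxcl3 ranged from -3.31 in lymphoma 13 through a median of -1.45 to 3.11 in lymphoma 7. The other 17 were all at -0.76 or lower, and the mean was -1.35 ± 1.28 (SD, n = 18), 2.55-fold lower (limma adjusted p = 0.000422). Cxcl2 stayed close to thymus, between -0.82 and 0.42 in all but lymphoma 7, where it was 1.53. Its mean of -0.14 ± 0.57 did not pass (limma adjusted p = 0.385). Cxcl5 was at -0.43 ± 2.02, with 5.40 in lymphoma 7, and passed as lower only when that lymphoma was left out, alone or with lymphomas 12 and 14 (-0.77, limma adjusted p = 0.0476, without lymphoma 7 alone). Cxcl15, an attractant known from mouse lung, was at -0.17 ± 0.33 and did not pass in all 18 (limma adjusted p = 0.102). It did without lymphoma 8 (limma adjusted p = 0.0402), and with each array centred on its median (limma adjusted p = 0.0416). Its probes had means of -0.27 (lower in 13 of 18) and -0.06 (lower in 9 of 18).

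The ratio of Cxcl1 was below that of Cxcl2 in 14 of 18 lymphomas, by 1.20 ± 1.60 (sign-flip permutation test, two-sided, adjusted p = 0.0148 over 16 pairs of ligands). Such a difference concerns the changes from thymus, not the levels of the transcripts. It was below that of Cxcl5 in 15 of 18 (adjusted p = 0.0182), a difference that no longer passed without lymphomas 7, 12 and 14 (adjusted p = 0.062). Of 8 neutrophil markers, 7 were lower, and their list mean lay between -4.87 and -0.84. Whether neutrophil content had a part in the values of these ligands was not tested. The receptor genes Cxcr2 (-0.03 ± 0.27) and Cxcr1 (0.09 ± 0.37) did not pass. The probes of Cxcr2 disagreed in sign, with means of -0.24 (lower in 15 of 18) and 0.18 (lower in 4 of 18).

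Monocyte attractants varied widely among the lymphomas. Ccl6, a mouse ligand of Ccr1, had the largest SD of the 31, with values from -4.88 in lymphoma 3 through a median of 1.25 to 3.89 in lymphoma 10. Of the 7 lymphomas low in macrophage markers, 6 were at -1.19 or lower and lymphoma 18 was at 0.61, while the other 11 were all above thymus, between 0.21 and 3.89. Its mean of 0.18 ± 3.05 (SD, n = 18) did not pass (limma adjusted p = 0.835). Ccl9, its neighbour on chromosome 11 and also a ligand of Ccr1, ranged from -3.74 in lymphoma 5 through a median of -0.13 to 3.57 in lymphoma 14. All 7 of the low set were below thymus and 8 of the other 11 above it. The mean was -0.20 ± 2.32 (SD, n = 18; limma adjusted p = 0.756).

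Ccl2, Ccl7 and Ccl12 bind Ccr2 on inflammatory monocytes. Ccl12 ranged from -4.53 in lymphoma 18 through a median of -0.11 to 3.91 in lymphoma 14. The 7 low lymphomas were at -2.23 or lower and the other 11 at -0.61 or higher, without overlap, and the overall mean was -0.70 ± 2.95 (SD, n = 18; limma adjusted p = 0.365). Ccl2 ranged from -3.20 in lymphoma 5 through a median of -0.08 to 4.67 in lymphoma 14, and Ccl7 from -2.47 in lymphoma 18 through 0.48 to 5.67 in lymphoma 14. Means were 0.01 ± 2.17 and 0.79 ± 2.12 (SD, n = 18; limma adjusted p = 0.992 and 0.153). Lymphoma 15 was the exception in the low set. Its macrophage list was the lowest of all at -3.09 and its Ccl12 was at -4.51, but Ccl2 was at 3.22, Ccl7 at 3.82 and Cxcl1 at 3.52. Its fibroblast list was at 0.93, against -1.44 or lower in the other 6 of that set. Ccr2 was at -0.50 ± 1.39 and did not pass.

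The size of several ligand means, and the direction of some, depended on the 7 lymphomas low in macrophage markers. Leaving them out was an alternative added after seeing the data, and the 7 were picked by values measured on the same arrays, so it shows this dependence and is no comparison of groups. Without them the means were 2.22 for Ccl6, 1.67 for Ccl7, 1.56 for Cxcl13, 1.39 for Ccl12 and 1.28 for Ccl9. These 5 passed as higher, a share of the ligands that did not exceed the 19.6% of all genes called higher. The lower calls of Ccl1, Ccl24, Cxcl14, Cxcl16 and Cxcl17 were lost. Every other ligand called lower in the full comparison stayed lower, beside 20.7% of all genes. Platelet factor 4 (Pf4), a ligand whose symbol the rule does not take, was also lower in the 7 lymphomas than in the other 11. It lay between -7.56 and -2.11 in the 7 lymphomas and between 0.79 and 4.78 in the other 11, with a mean of -0.33 ± 3.63 that did not pass (limma adjusted p = 0.741).

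Over all 18 lymphomas, 13 of 31 ligands rose with the macrophage list (limma slope, adjusted p under 0.05), against 5.32% of all genes. The steepest were Ccl6 (1.50 ± 0.17 log2 units per unit of the list, SE), Ccl12 (1.49 ± 0.15), Cxcl13 (1.28 ± 0.23) and Ccl9 (1.10 ± 0.15). Without lymphomas 7, 12 and 14, 10 passed (4.08%). Within the 11 lymphomas none passed (0.011% of all genes, 6 ligands at an unadjusted p under 0.05), and within the 7 none passed (0.0% of all genes, 1 at an unadjusted p under 0.05). The relation over all 18 thus passed in neither set alone, where fewer lymphomas entered each fit. Of the macrophage markers themselves, 3 of 12 were lower and 1 was higher.

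The fibroblast list gave a related picture. With it 11 ligands rose over all lymphomas (6.14% of all genes), 12 without lymphomas 7, 12 and 14 (3.95%), none within the 11 (1.41%, 5 ligands at an unadjusted p under 0.05) and 2 within the 7 (0.309%). Those 2 were Ccl7 (1.67 ± 0.21 per unit, SE, limma adjusted p = 0.032) and Cxcl12 (1.67 ± 0.19, limma adjusted p = 0.0284), and lymphoma 15 was the highest of the 7 in both. The part of either cell type in the ligand ratios was not tested.

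With the thymic epithelium list, 7 ligands rose (3.66% of all genes), among them Ccl19 (1.44 ± 0.25, SE, limma adjusted p = 0.00191), Ccl21c (0.77 ± 0.13, limma adjusted p = 0.00179) and Ccl17. None passed without lymphoma 7, or without lymphomas 7, 12 and 14 (0.0827% of all genes, 4 ligands at an unadjusted p under 0.05). Within the 11, which hold those 3 lymphomas, Ccl19 and Ccl21c passed (1.59%), and within the other 7 none did (0.0%, 6 at an unadjusted p under 0.05). All 13 thymic epithelium markers were lower than in thymus, such as Psmb11 (-4.30 ± 1.41), a thymoproteasome subunit. Whether loss of epithelium had a part in the lower ligand ratios was not tested.

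Further ligands act on Ccr4, Ccr3 or Ccr8. Ccl17, a Ccr4 ligand of dendritic cells and medullary epithelium, ranged from -3.50 in lymphoma 15 through a median of -2.94 to 0.41 in lymphoma 7. It was lower in the other 17, with a mean of -2.50 ± 1.08 (SD, n = 18), 5.66-fold lower (limma adjusted p = 5.36e-08). Ccl22, the other Ccr4 ligand, ranged from -2.89 in lymphoma 18 through a median of -0.97 to -0.18 in lymphoma 7. It was the 1 ligand lower in 18 of 18 lymphomas, with a mean of -1.04 ± 0.61 (SD, n = 18), 2.06-fold lower (limma adjusted p = 3.25e-06). Ccl17 lay below Ccl22 in 17 of 18 lymphomas, by 1.46 ± 0.95 (sign-flip permutation test, adjusted p = 0.00016). Of 10 dendritic cell markers, all were lower, including Clec9a (-2.27 ± 0.90).

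Ccl11 (eotaxin), a Ccr3 ligand of fibroblasts and epithelium, ranged from -5.38 in lymphoma 5 through a median of -2.75 to 1.05 in lymphoma 7. The 7 lymphomas low in macrophage markers were all at -4.31 or lower and the other 11 at -4.51 or higher, with only lymphoma 16 overlapping the lower set. The mean was -3.02 ± 1.95 (SD, n = 18), 8.11-fold lower (limma adjusted p = 6.20e-06). Ccl24, another eotaxin, made by macrophages, ranged from -3.39 in lymphoma 18 through a median of -1.63 to 1.83 in lymphoma 10. It was above thymus in 5 lymphomas, and the mean was -1.32 ± 1.60 (SD, n = 18), 2.49-fold lower (limma adjusted p = 0.00333). Without the 7 low lymphomas this call was lost (-0.45, limma adjusted p = 0.373). The ratio of Ccl11 was below that of Ccl24 in 17 of 18 lymphomas, by 1.70 ± 1.42 (sign-flip permutation test, adjusted p = 0.00104). Ccl1, a Ccr8 ligand of activated T cells, fell by 0.49 (SD 0.87), a call near the threshold. It was lost without the 7 low lymphomas, at a mean of -0.45 (limma adjusted p = 0.216). It was also lost when lymphoma 4, 5, 8, 9, 10, 11, 15, 17 or 18 was left out, with means between -0.49 and -0.34 (limma adjusted p between 0.0503 and 0.0753).

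The last group holds ligands of epithelia and mucosa and the transmembrane ligand Cxcl16. Ccl20, which draws Ccr6-bearing cells to epithelia, ranged from -3.64 in lymphoma 14 through a median of -2.92 to 2.95 in lymphoma 7. The next highest was lymphoma 6 at -0.40, and the mean was -2.51 ± 1.54 (SD, n = 18), 5.68-fold lower (limma adjusted p = 3.61e-06). Ccl27a, a Ccr10 ligand of skin keratinocytes, ranged from -3.27 in lymphoma 5 through a median of -1.67 to 0.85 in lymphoma 7. It was 3.23-fold lower (-1.69 ± 0.93, limma adjusted p = 1.13e-06). Ccl28, the mucosal ligand of Ccr10, had a mean of -0.02 ± 0.43 and did not pass (limma adjusted p = 0.881). In 17 of 18 lymphomas its ratio was above that of Ccl27a, by 1.67 ± 1.07 (sign-flip permutation test, adjusted p = 0.00016).

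Cxcl16, a Cxcr6 ligand and scavenger receptor made by macrophages and dendritic cells, ranged from -4.18 in lymphoma 5 through a median of -1.07 to 0.90 in lymphoma 14. The 7 lymphomas low in macrophage markers were at -2.48 or lower and the other 11 at -1.35 or higher, without overlap. The sets did not overlap either for Ccl4 (-1.6 or lower against -1.13 or higher) and Cxcl14 (-1.747 or lower against -1.612 or higher). The mean of Cxcl16 was -1.67 ± 1.79 (SD, n = 18), 3.18-fold lower (limma adjusted p = 0.00118). Without the 7 its call was lost (-0.38, limma adjusted p = 0.163). Cxcl14, an epithelial and stromal ligand, fell by 0.78 (SD 1.40, n = 18; limma adjusted p = 0.0355). Without the 7 its mean was 0.08 and did not pass (limma adjusted p = 0.858), and the call was also lost when lymphoma 1, 2, 3, 5, 7, 15, 16, 17 or 18 was left out. Cxcl17, a mucosal ligand, fell by 0.47 (SD 0.72, n = 18; limma adjusted p = 0.0189), and without the 7 its mean was -0.41 and did not pass (limma adjusted p = 0.184).

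**Figure D4:**
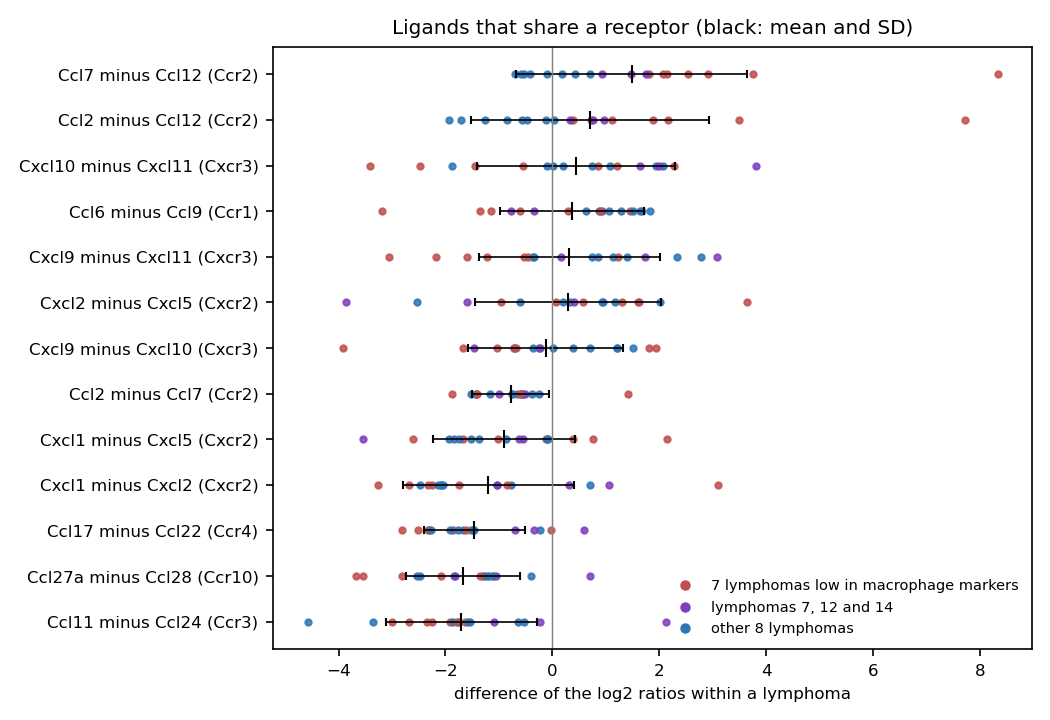
Difference of the log2 ratios of 2 ligands of a shared receptor within each lymphoma (points), with the mean and SD in black, for 13 pairs. Ccl7 minus Ccl12 is above 0 in 13 of 18 lymphomas, and Ccl11 minus Ccl24 is below 0 in 17.

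Ligands of a shared receptor are described in 13 pairs, and in 7 the ratios differed (sign-flip permutation test, adjusted p under 0.05 over the 16 pairs tested). Besides the pairs already given, Ccl7 exceeded Ccl2 in 17 of 18 lymphomas, by 0.78 ± 0.72 (adjusted p = 0.00104), and Ccl12 in 13 of 18, by 1.48 ± 2.16 (adjusted p = 0.00539). With the 7 low lymphomas left out, the latter difference was 0.28, above 0 in 6 of 11, and did not pass (sign-flip permutation test, adjusted p = 0.36). In that pair lymphoma 15, at 8.33, was the farthest from 0. Over all 18 no difference passed among the 3 Cxcr3 ligands, with mean differences of -0.12 ± 1.45 (Cxcl9 minus Cxcl10), 0.32 ± 1.69 (Cxcl9 minus Cxcl11) and 0.44 ± 1.86 (Cxcl10 minus Cxcl11). Without the 7, Cxcl9 minus Cxcl11 was 1.23, above 0 in 9 of 11 lymphomas, and passed (sign-flip permutation test, adjusted p = 0.0161). Ccl6 minus Ccl9, at 0.37 ± 1.35 over all 18, then also passed, at 0.94 (sign-flip permutation test, adjusted p = 0.0176). In a further comparison chosen after seeing the data, Ccl19 lay below Ccl21c in 12 of 18 lymphomas, by 0.76 ± 1.34 (sign-flip permutation test, p = 0.029).

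Some of these pairs varied together from lymphoma to lymphoma. Correlations were planned over all 18 lymphomas. There Ccl2 with Ccl7 (r = 0.945) and Cxcl9 with Cxcl10 (r = 0.7765) passed by both Pearson's r and Spearman's rho. Ccl17 with Ccl22 passed by neither, at r = 0.482 and rho = 0.459 (permutation p adjusted over 16 pairs, 0.06 and 0.0684). Cxcl10 with Cxcl11 passed by r (0.581, adjusted permutation p = 0.0209) but not by rho (0.5005, adjusted permutation p = 0.0587). Correlations within each macrophage set, over the 13 pairs and Ccl19 with Ccl21c, were added after seeing the data. In the 11 lymphomas, 9 of these 14 pairs passed by both Pearson's r and Spearman's rho (permutation p adjusted over the 17 pairs tested). Ccl2 and Ccl7 had r = 0.976 (permutation p = 1e-05, adjusted p = 0.00017) and rho = 0.964 (permutation p = 2e-05, adjusted p = 0.00034), with r = 0.915 without lymphomas 10 and 14. Cxcl9 and Cxcl10 had r = 0.953 (permutation p = 7e-05, adjusted p = 0.000595) and rho = 0.836 (permutation p = 0.0026, adjusted p = 0.01105), with r = 0.876 without lymphomas 7 and 14. Ccl17 and Ccl22 had r = 0.872 (permutation p = 0.00022, adjusted p = 0.000884) and rho = 0.900 (permutation p = 0.00044, adjusted p = 0.00374), with r = 0.616 without lymphomas 7 and 14. Among the 9, Cxcl9 with Cxcl11 went from r = 0.699 to 0.256 without lymphomas 7, 12 and 14, and Cxcl10 with Cxcl11 from 0.749 to 0.29, so these relations rested on those lymphomas. In the 7 lymphomas no pair passed by exact permutation. There Ccl2 and Ccl7 had r = 0.870 (exact permutation p = 0.0863, adjusted p = 0.417), which became -0.36 without lymphomas 5 and 15 and so rested on them.

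Of 21 chemokine receptor genes measured, 10 were lower in the lymphomas (27.9% of all genes), 7 of them at least 2-fold (10.9% of all genes), and none was higher (29.9%). Ccr9, the receptor of cortical thymocytes for a ligand of thymic epithelium, ranged from -4.69 in lymphoma 14 through a median of -3.72 to -0.68 in lymphoma 4. Every lymphoma was below thymus, with a mean of -3.14 ± 1.21 (limma adjusted p = 1.50e-08). Ccr6, the Ccl20 receptor, was at -1.56 ± 0.82 (limma adjusted p = 7.35e-07), and was lower in 18 of 18. Cxcr6, the Cxcl16 receptor, was at -1.45 ± 2.05 (limma adjusted p = 0.00944), with 4.65 in lymphoma 7. Ackr3, a scavenging receptor of Cxcl12, was at -1.13 ± 1.99 (limma adjusted p = 0.0325). Cxcr4, the signalling receptor of Cxcl12, did not pass, with a median of 0.09 and a mean of -0.04 ± 0.77 (limma adjusted p = 0.839). The means of its probes differed in sign, at 0.13 and -0.22.

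Among the other receptors, Ccr8 (-0.81 ± 1.04), Ccr3 (-0.37 ± 0.53), Ackr4 (-0.84 ± 0.60) and Xcr1 (-1.28 ± 0.55) were lower. The probes of Xcr1 disagreed, with means of -2.83 and 0.27, as did those of Ackr4, at -1.51 and 0.03. Ccr4, the receptor of Ccl17 and Ccl22, was at -0.43 ± 0.87 and Ccr10 at 0.19 ± 0.45, and neither passed (limma adjusted p = 0.0672 and 0.148). Ackr1, Ackr2, Ccrl2 and Cx3cr1 did not pass either, with means between -0.36 and 0.07. Ccr1 was not analysed here.

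**Figure D5:**
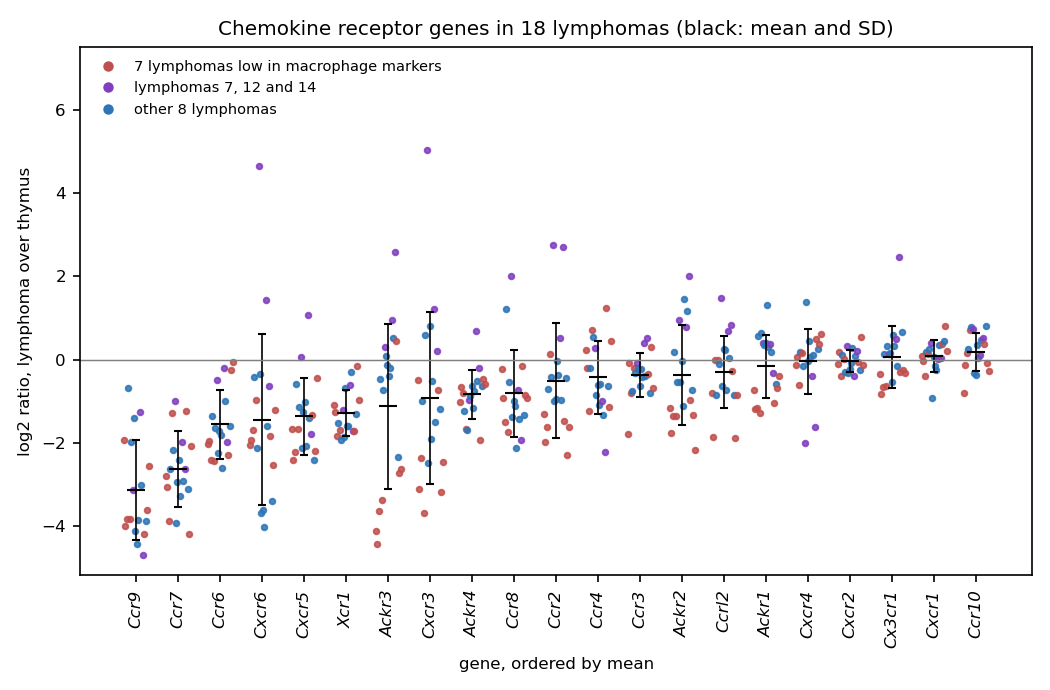
Log2 ratio of lymphoma over thymus for each of 21 chemokine receptor genes, with 1 point per lymphoma and the mean and SD in black. Ccr9, Ccr7, Ccr6 and Xcr1 lie below 0 in all 18 lymphomas, and Cxcr3 and Cxcr6 reach 5.03 and 4.65 in lymphoma 7.

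Of 3 further ligands besides Pf4, all were lower. Xcl1, a lymphocyte ligand of Xcr1, was at -2.46 ± 1.04 (limma adjusted p = 4.44e-08), Ppbp, a platelet ligand of Cxcr2, at -1.72 ± 2.03 (limma adjusted p = 0.00267), and the fractalkine gene Cx3cl1 at -1.11 ± 1.16 (limma adjusted p = 0.001). The probes of Cx3cl1 disagreed, with means of -2.41 and 0.18. Ppbp was above thymus in 3 lymphomas and reached 3.16 in lymphoma 12.

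Genes of the cytokine and NF-kappaB pathways that induce inflammatory ligands, inhibitors of these pathways among them, were mostly lower as well. Of 14 measured, 11 were lower (27.9% of all genes). The 1 that was higher was Rela, an NF-kappaB subunit, at 0.51 ± 0.33 and above thymus in 17 of 18 lymphomas (limma adjusted p = 3.90e-05). Ltb, which encodes lymphotoxin beta, a signal for homeostatic ligands in lymphoid stroma, ranged from -4.56 in lymphoma 3 through a median of -3.23 to 0.18 in lymphoma 7 (-2.95 ± 1.11, limma adjusted p = 1.20e-08). Tnfrsf1a, a receptor of tumour necrosis factor, was at -1.44 ± 0.79 (limma adjusted p = 1.29e-06), Relb, another NF-kappaB subunit, at -1.51 ± 0.99 (9.32e-06), and Nfkbia, an NF-kappaB inhibitor that is itself an NF-kappaB target, at -1.25 ± 0.84 (1.32e-05). The list mean was above thymus in lymphoma 7 alone, at 0.71. That lymphoma also held the highest ratio of Ccl1, Ccl11, Ccl17, Ccl19, Ccl20, Ccl21c, Ccl22, Ccl27a, Cxcl2, Cxcl3, Cxcl5, Cxcl10, Cxcl11 and Cxcl17. The share of all genes highest in lymphoma 7 was not counted. A link between these ligands and the genes of the cytokine and NF-kappaB pathways was not tested.

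Ligand genes that lie together in the genome did not share 1 pattern. On chromosome 11, which carries 11 of the 31, Cxcl16 included, 4 were lower (27.9% of all genes). Ccl5 (-3.04) lies between Ccl1 (-0.49) and Ccl9 (-0.20) in the order of the ligands along it. On chromosome 5, which carries 10, 6 were lower. There the neighbours Cxcl9, Cxcl10 and Cxcl11 had means between -3.20 and -2.76, and Cxcl2, next in order, was at -0.14.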

How the data were processed

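The authors deposited 1 log ratio per probe and lymphoma, against thymus RNA. Its log base, centring, direction, feature extraction and normalization are not stated in the labels. The deposited values were taken as log10 ratios, the form that the array maker's software writes, and multiplied by 3.3219 to give log2. Lymphoma over thymus was called the likely direction because the means of Atm and Terc probes were lower in at least 17 of 18 lymphomas. Of 41175 probes, 31700 carried 1 gene symbol in the platform annotation and 37295 had values on at least 14 arrays. Probes of a gene were averaged, giving 18147 genes. No column of another sample was present in the table.

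A moderated test of each gene's mean (R 4.3.3, limma 3.58.1, lmFit and eBayes, Benjamini-Hochberg over all genes, threshold 0.05) set it against a ratio of 0, and slopes on marker lists were fitted the same way. Pairs were tested by sign-flip permutation (100000 resamples, two-sided, Python 3.11.15), and 3 of the 16 pairs are not reported here. The fits were tested on simulated data. The members and lists were chosen with earlier results of these data known. Every ligand gene is named. Those changed at least 2-fold or among the 8 largest SDs have their range given. Of marker lists, up to 4 genes with the smallest adjusted p are named. Alternatives were array centring, quantile normalization, 1 probe per gene, probes without missing values, array weights, a trended robust prior, leaving out lymphomas, and base 2. Leaving out or keeping only the 7 lymphomas low in macrophage markers, and the pair Ccl19 and Ccl21c, were added after seeing the data. So were the pair correlations within the macrophage sets. Promoter windows are from RefSeq (GRCm38.p6).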

Additional observations from a re-analysis of the deposited data

How the results depend on the processing

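Over 26 alternatives for each of 31 ligands (806 values), 767 kept their side of the threshold, 22 lost the call and 13 gained it. The 767 include means that turned in sign but passed neither before nor after, such as Ccl2 (-0.37 without lymphomas 7, 12 and 14). In the remaining 4 the sign turned and the mean passed before or after. The 4 turned without the 7 lymphomas low in macrophage markers, an alternative chosen after seeing the data, at means of 1.39 for Ccl12, 1.28 for Ccl9, 1.56 for Cxcl13 and 0.077 for Cxcl14. There the count of higher ligands was 5 of 31, against 0 with all lymphomas, and 19.6% of all genes were higher. Leaving out 1 lymphoma gave 0 to 0 higher, 17 to 20 lower and 15 to 16 changed at least 2-fold, 9 to 12 lower receptors and 9 to 9 differing pairs of the 16 tested. If the deposited values were log2, 2 ligands would be changed at least 2-fold. The counts of ligands rising with a marker list were less stable. The share of all genes was not counted for every one of these settings. For the macrophage list (13) the count was 10 to 15 without 1 lymphoma, and 0 both without the 7 and in the 7 alone. For the fibroblast list (11) it was 8 to 15 without 1 lymphoma, 6 with quantile normalization, 7 without the 2 most extreme lymphomas, 0 without the 7 and 2 in the 7 alone. For the interferon list (3) it was 3 to 16, 16 being without lymphoma 3, and 0 without lymphomas 7, 12 and 14, 9 without the 2 most extreme lymphomas, 6 without the 7 and 0 in the 7 alone. For the thymic epithelium list (7) it was 0 to 10, 0 being without lymphoma 7, and 1 with quantile normalization, 3 with array weights, 4 with the trended robust prior, 0 without lymphomas 7, 12 and 14, 0 without the 2 most extreme lymphomas, 2 without the 7 and 0 in the 7 alone. The causes were not tested. The replicate numbers name lymphomas of 1 group, and no paired analysis was possible because there is no other group to pair them with. Signal over background is not in the deposited values, so genes near background cannot be told apart from measured ones.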
